A study of Homo sapiens with 12 samples.

Results

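Newly made RNA of 38 genes for aminoacyl-tRNA synthetases and their scaffold proteins was followed in U2OS-MycER cells, out of 23434 genes in the deposited count table. U2OS is a human osteosarcoma line, and MycER is a MYC protein fused to a hormone-binding domain, so that the drug 4-hydroxytamoxifen (OHT) switches it on. The members were taken by name, with earlier results of these data known, and no measured value entered the rule. They comprised 19 cytosolic synthetases (the symbols ending in 1, with FARSA and FARSB), 3 scaffold proteins (AIMP1, AIMP2 and EEF1E1) and 16 mitochondrial synthetases (the symbols ending in 2), and all 38 were found in the table. The 22 genes of the first 2 groups are called cytosolic below.

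EU-seq captures RNA made during a pulse of 5-ethynyl-uridine, a clickable uridine analogue, and therefore reads transcription more than RNA stability. Of the 12 libraries, 3 were labelled shNT (non-targeting shRNA, no OHT), 3 shNT+OHT, 3 shCDK12 (shRNA against the elongation kinase CDK12, no OHT) and 3 shCDK12+OHT. All cells carried MycER and a doxycycline-inducible shRNA and were brought into the cell cycle together from a nocodazole block (100 ng/mL for 8 h, then 12 h of release), with doxycycline at 1 µg/mL, OHT where given at 300 nM for 40 h, and 0.5 mM 5-ethynyl-uridine for 2 h. The labels name 1 shRNA against CDK12 and 1 cell line. Labels do not say whether the 3 libraries of a group came from separate cultures, so p-values measure the spread between these libraries, which may be technical.

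Aminoacyl-tRNA synthetases join each amino acid to its tRNA, which is the step that sets the genetic code in protein synthesis. Human cells keep separate nuclear-encoded enzymes for the cytosol and for mitochondria, while GARS1 and KARS1 serve both compartments from 1 gene each. In the cytosol several of the enzymes assemble on AIMP1, AIMP2 and EEF1E1 into a multi-synthetase complex. Many cytosolic synthetase genes are textbook targets of ATF4, the transcription factor of the amino acid and integrated stress response, which binds C/EBP-ATF elements, and MYC is a known driver of genes for protein synthesis.

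The C/EBP-ATF element is shown first because the counts below are split by known ATF4 responsiveness. The letters TGATGNAA were searched on both strands from 250 bases before to 50 bases after each RefSeq start site (assembly GRCh38.p14). They occurred in 8 of the 45 windows of the 33 members with a promoter entry, or 17.8%, against 3.62% of all 35116 windows. Of the 8 genes that held it, 7 were among the 16 matched cytosolic synthetases and 1, YARS2, was mitochondrial. The windows below are 30 bases long, run 5′ to 3′ on the strand of the gene, and show the element in capitals.
AARS1 (chr16:70289675-70289704, minus strand): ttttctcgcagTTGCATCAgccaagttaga
CARS1 (chr11:3057407-3057436, minus strand): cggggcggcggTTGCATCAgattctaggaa
GARS1 (chr7:30594834-30594863, plus strand): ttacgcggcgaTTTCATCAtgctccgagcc
IARS1 (chr9:92293692-92293721, minus strand): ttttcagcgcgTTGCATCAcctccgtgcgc
MARS1 (chr12:57488053-57488082, plus strand): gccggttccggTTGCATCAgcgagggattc
NARS1 (chr18:57621804-57621833, minus strand): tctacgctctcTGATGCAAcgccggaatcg
TARS1 (chr5:33440956-33440985, plus strand): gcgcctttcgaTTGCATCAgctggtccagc
YARS2 (chr12:32756076-32756105, minus strand): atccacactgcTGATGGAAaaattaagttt
In 6 of the 8 genes the element began between 33 bases before and 15 bases after the start site, whereas in AARS1 and YARS2 it began 187 and 197 bases before it. A match of letters describes the window and not the binding of a factor. The canonical E-box CACGTG, the letters MYC is known to bind, was found in 6 of the 45 windows (13.3%, against 7.26% of all), in IARS1, AIMP2, CARS2, EARS2 and MARS2. The ETS core CCGGAAG was found in 20 of the 45 (44.4%, against 10.3%), and the NRF1 core GCATGCGC in 2 (4.44%, against 3.05%), in MARS2 and YARS2. Some genes have more than 1 window, and these windows overlap.

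Library totals ran from 1251695 to 10447836 counts, and the shNT+OHT libraries held 1251695 to 3666406. Levels are given as CPM, the counts scaled to a common library size, after TMM scaling over the 12 libraries. The table holds no rows of the mouse RNA that was added to each sample, so a change in total RNA output cannot be seen, and fewer cells making an RNA cannot be told apart from less RNA per cell. Of 7 mesenchymal and bone markers, 5 were detected (among them RUNX2, COL1A1, SPARC and VIM) while COL1A2 and TWIST1 lay under 1 CPM in every group, and the summed level was 841 to 943 CPM in shNT, 670 to 713 in shNT+OHT, 376 to 383 in shCDK12 and 478 to 493 in shCDK12+OHT. The 8 markers of other cell types summed to 18.6 to 29.7 CPM over all libraries, with PTPRC, CD3E, ALB and HBB under 1 CPM in every group. CDH1 had group means of 6.10 to 9.57 CPM, SYP of 5.90 to 12.0 and GFAP of 1.25 to 3.50. EPCAM had means of 0.82 in shNT, 1.58 in shNT+OHT, 8.03 in shCDK12 and 2.64 in shCDK12+OHT. COL5A1, among the detected bone markers, had group means of 7.48 to 19.0 CPM. The marker sums moved with the groups, and their part in the results below was not tested.

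The shRNA target did not follow the shCDK12 label without OHT. CDK12 stood at 323, 289 and 300.2 CPM in shNT, 434, 356 and 400.5 in shNT+OHT, 293, 277 and 298 in shCDK12 and 215, 208 and 218 in shCDK12+OHT, so that the shNT and shCDK12 libraries overlapped (log2 fold change -0.08 ± 0.08 SE, adjusted p = 0.447, edgeR quasi-likelihood test, Benjamini-Hochberg adjusted). With OHT the libraries labelled shCDK12 were lower (log2 fold change -0.88 ± 0.11 SE, adjusted p = 0.00011). RNA interference acts on the finished transcript, so newly made RNA is no direct check of a knockdown, and the groups are named by their labels throughout. MYC stood at 2221, 2044 and 2013 CPM in shNT, 2199, 1706 and 1997 in shNT+OHT, 1214, 1035 and 1122 in shCDK12 and 2091, 2095 and 2000.4 in shCDK12+OHT. Its reads may come from the cell's own gene or from the MycER transgene, which this table does not separate, and it was lower in the libraries labelled shCDK12 without OHT than in shNT (log2 fold change -0.90 ± 0.08 SE, adjusted p = 1.8e-10).

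Levels differed widely between members. Per kilobase of the canonical transcript (GENCODE v44), the mean CPM over 12 libraries had a median of 37.7 in the cytosolic synthetases, from 4.81 in FARSB to 235 in SARS1, the seryl-tRNA synthetase. The scaffold proteins lay between 11.4 and 28.8, and the mitochondrial synthetases had a median of 12.0, from 5.51 in FARS2 to 47.1 in MARS2. The lowest member count in any library was 5 (EEF1E1 in an shNT+OHT library) and the highest was 3847 (SARS1). All 38 members passed the filter of a mean normalized count over 32 in 4 of the 5 tests, and EEF1E1 and FARS2 did not pass it in shNT+OHT against shNT.

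The first comparison addressed what MycER activation did to these genes in control cells. OHT raised 6 members and lowered 1 of the 36 tested, and 5 of the 6 were cytosolic: VARS1, KARS1, FARSA, HARS1 and SARS1, with MARS2, the mitochondrial methionyl-tRNA synthetase, as the sixth. HARS2, the mitochondrial histidyl-tRNA synthetase, was the member that fell. Among all 10272 genes tested, 9.05% were called higher and 8.29% lower (adjusted p under 0.05, edgeR). The median log2 fold change was 0.23 over the members, 0.23 over the cytosolic genes and 0.21 over the mitochondrial ones, against -0.03 over all genes tested. Without shNT+OHT replicate 1 the cytosolic median was 0.31 and the mitochondrial one 0.0917, and without shNT+OHT replicate 2 they were 0.31 and 0.33. A positive sign was seen in 28 of the 36 members, most of them short of the test.

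VARS1, the valyl-tRNA synthetase, was read at 109, 121 and 88.2 CPM in shNT, 229, 163 and 184 in shNT+OHT, 191, 179.9 and 194 in shCDK12 and 139, 136 and 126 in shCDK12+OHT. OHT raised it 1.80-fold in the shNT background (log2 fold change 0.85 ± 0.16 SE, adjusted p = 0.00235), with no overlap between the groups. KARS1, the lysyl-tRNA synthetase of both compartments, was read at 138, 124 and 134 CPM in shNT, 222, 204 and 241 in shNT+OHT, 147, 151 and 149 in shCDK12 and 105, 106 and 104 in shCDK12+OHT, and its shNT+OHT libraries were the highest of all 12 (1.68-fold, log2 fold change 0.75 ± 0.13 SE, adjusted p = 0.00147). FARSA, the catalytic subunit of phenylalanyl-tRNA synthetase, was read at 39.6, 38.1 and 31.1 CPM in shNT, 74.3, 47.8 and 54.8 in shNT+OHT, 38, 37.4 and 33.3 in shCDK12 and 28.7, 34.1 and 29.9 in shCDK12+OHT. Its rise was 1.63-fold (log2 fold change 0.71 ± 0.20 SE, adjusted p = 0.0271). Its partner subunit FARSB did not pass the test (log2 fold change 0.30 ± 0.18 SE, adjusted p = 0.276). SARS1 rose 1.34-fold (log2 fold change 0.42 ± 0.11 SE, adjusted p = 0.0177), and MARS2 rose 1.31-fold (log2 fold change 0.39 ± 0.13 SE, adjusted p = 0.0477). No mitochondrial gene was called higher without any 1 of the shNT libraries, without shNT+OHT replicate 3 or with the replicate block, so the MARS2 call was lost there.

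GARS1, the glycyl-tRNA synthetase of both compartments, was not called (log2 fold change 0.23 ± 0.13 SE, adjusted p = 0.22), although its shNT+OHT libraries all lay above its shNT libraries. SARS2 (0.72, adjusted p = 0.0596) and YARS1 (0.33, adjusted p = 0.0668) came close to the threshold. Negative log2 fold changes that did not pass were seen for RARS1 (-0.57), QARS1 (-0.28), IARS2 (-0.26), RARS2 (-0.22), WARS2 (-0.18), TARS1 (-0.05) and EARS2 (-0.02). The count of this comparison depended on single libraries. Without any 1 of the 3 shNT libraries 2 members were called, without shNT+OHT replicate 3 it was 3, and without shNT+OHT replicate 1 it was 12.

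Upon MycER activation 1 of 12 ATF4-responsive synthetases rose (SARS1), a share near the 9.05% of all genes tested, and of the 7 other cytosolic synthetases 4 rose (FARSA, HARS1, KARS1 and VARS1), with medians of 0.20 and 0.52 on the log2 scale. These counts rest on the same library-dependent calls, since 2 cytosolic genes were called without any 1 of the shNT libraries. The 8 members with the C/EBP-ATF element printed above had log2 fold changes from -0.05 to 0.27. In the same libraries 7 of 11 other ATF4 response genes rose, led by DDIT4 (1.11), a negative regulator of mTORC1, and CHAC1 (1.10), a glutathione-degrading enzyme. ATF4 itself rose by 0.66 (adjusted p = 0.000631).

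**Figure D1:**
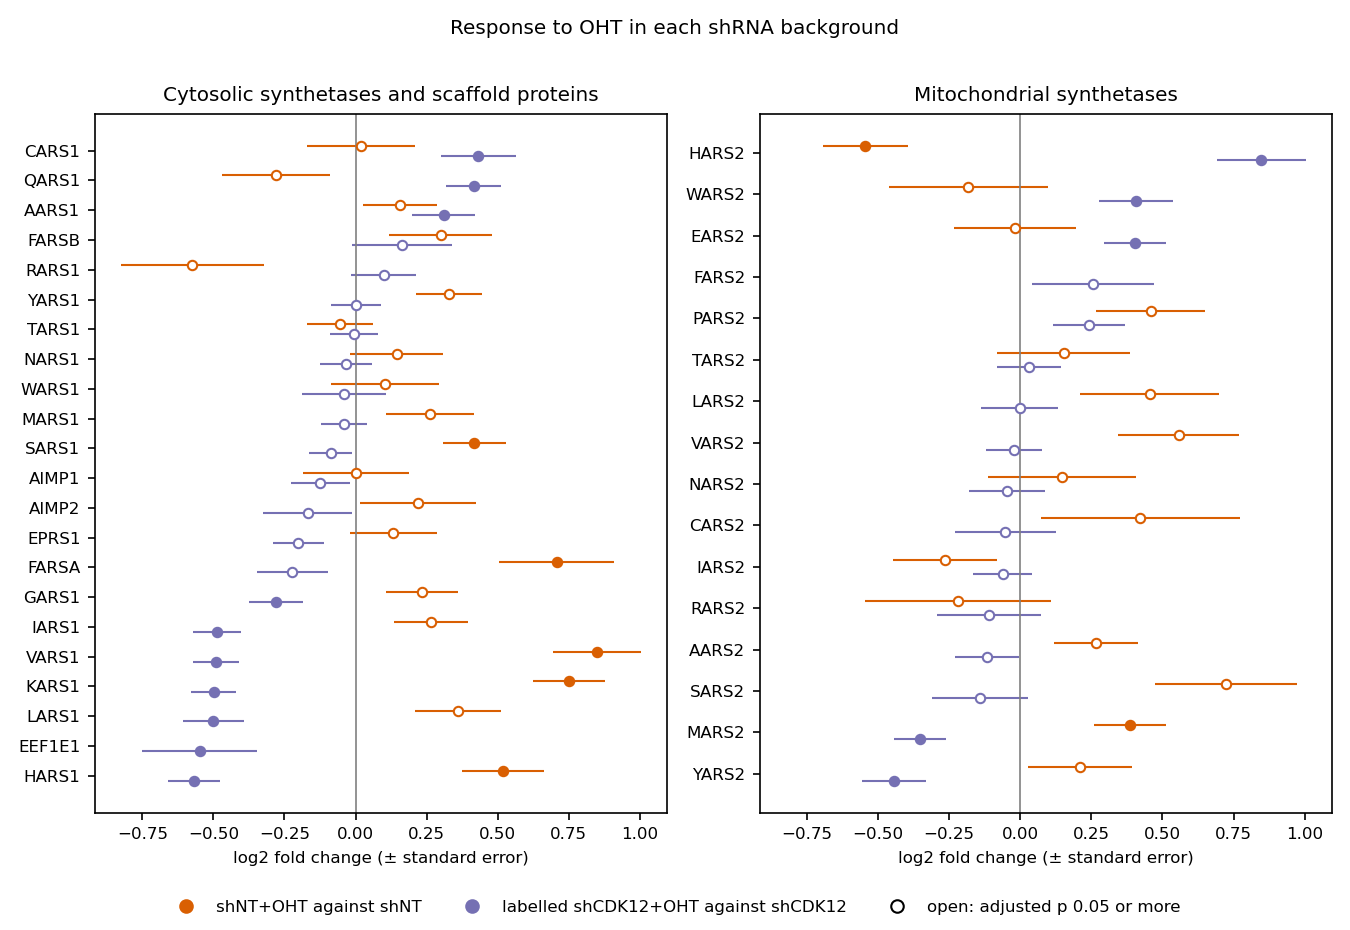
Log2 fold change upon OHT for each member, with its standard error, in the shNT background (orange) and in the libraries labelled shCDK12 (violet), for cytosolic (left) and mitochondrial (right) genes, ordered by the violet values. Filled points had an adjusted p under 0.05. HARS1, KARS1, VARS1 and MARS2 are filled to the right of 0 in orange and to the left of 0 in violet. FARSA lies on the same sides but is open in violet (-0.22). Other members also lie on these sides with at least 1 open point.

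The second comparison set the libraries labelled shCDK12 against shNT without OHT. Of the 38 members 14 were lower and 7 were higher, where 32.4% of all genes tested were lower and 29.6% higher. Among the 22 cytosolic genes 10 were lower and 2 higher (median log2 fold change -0.23), and among the 16 mitochondrial genes 4 were lower and 5 higher (median -0.01), against a median of -0.03 over all genes. The share of lower calls was near the background for the members as a whole.

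The lowered cytosolic genes included AARS1, the alanyl-tRNA synthetase, at 130.2, 133 and 135 CPM in shNT, 156, 135 and 152 in shNT+OHT, 71.3, 53.6 and 58.7 in shCDK12 and 75.3, 70.2 and 80.7 in shCDK12+OHT. In the libraries labelled shCDK12 it was 0.457-fold the shNT level (log2 fold change -1.13 ± 0.12 SE, adjusted p = 6.65e-09), and the 6 libraries without OHT did not overlap. FARSB, the subunit that joins FARSA in the phenylalanyl enzyme, was read at 41.0, 46.5 and 38.6 CPM in shNT, 46.7, 50.3 and 58.6 in shNT+OHT, 11.6, 19.8 and 19.1 in shCDK12 and 20.6, 18.4 and 18.9 in shCDK12+OHT (0.406-fold, log2 fold change -1.30 ± 0.18 SE, adjusted p = 1.41e-06). FARSA was within its replicate spread (log2 fold change -0.02 ± 0.15 SE, adjusted p = 0.916), so the RNAs of the 2 subunits of 1 enzyme were at different ratios in these groups. WARS1 (0.508-fold), CARS1 (0.541-fold), YARS1 (0.602-fold), EPRS1 (0.69-fold), AIMP2 (0.697-fold), TARS1 (0.734-fold) and SARS1 (0.843-fold) were lower by the same test. GARS1 was read at 159, 145 and 128 CPM in shNT, 166, 171 and 174 in shNT+OHT, 88.5, 94.9 and 79.9 in shCDK12 and 70.9, 72.4 and 74.4 in shCDK12+OHT, and was 0.607-fold the shNT level (log2 fold change -0.72 ± 0.10 SE, adjusted p = 1.93e-06).

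The highest fold was that of EEF1E1, a scaffold protein of the complex, at 9.14, 8.59 and 6.52 CPM in shNT, 1.57, 11.5 and 11.3 in shNT+OHT, 14.1, 25.4 and 15.9 in shCDK12 and 14.1, 11.3 and 14.1 in shCDK12+OHT. These are low values, and the difference was 2.27-fold (log2 fold change 1.18 ± 0.26 SE, adjusted p = 0.000351). VARS1 was also higher (1.75-fold, log2 fold change 0.80 ± 0.10 SE, adjusted p = 2.18e-07), so that the shCDK12 libraries without OHT reached the level of the shNT+OHT libraries. KARS1 did not pass the test (log2 fold change 0.17 ± 0.09 SE, adjusted p = 0.116).

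The mitochondrial genes that were higher were YARS2, NARS2, VARS2, TARS2 and MARS2. YARS2, the mitochondrial tyrosyl-tRNA synthetase, was read at 52.2, 52.3 and 52.1 CPM in shNT, 48.2, 63.5 and 70.2 in shNT+OHT, 80.4, 108 and 99.7 in shCDK12 and 64.0, 77.5 and 71.7 in shCDK12+OHT (1.85-fold, log2 fold change 0.89 ± 0.13 SE, adjusted p = 1.52e-06). NARS2 was 1.72-fold (log2 fold change 0.78 ± 0.18 SE, adjusted p = 0.000716), VARS2 1.42-fold, TARS2 1.36-fold and MARS2 1.23-fold the shNT level. The genes that were lower were HARS2, PARS2 (0.525-fold), AARS2 (0.608-fold) and EARS2 (0.737-fold). For tyrosine the cytosolic YARS1 was lower and the mitochondrial YARS2 higher, whereas for alanine both AARS1 and AARS2 were lower and for valine both VARS1 and VARS2 were higher.

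In this comparison 32.4% of all genes tested were lower and 29.6% higher, which is the background for the counts that follow. Of the 12 ATF4-responsive synthetases 8 were lower (AARS1, CARS1, EPRS1, GARS1, SARS1, TARS1, WARS1 and YARS1; median -0.49). Of the 7 other cytosolic synthetases 1 was lower (FARSB) and 1 higher (VARS1; median 0.09). Of the 8 genes with the element shown above, AARS1, CARS1, GARS1 and TARS1 were lower, YARS2 was higher, and IARS1 (0.07), MARS1 (0.07) and NARS1 (-0.15) were not called. Among 11 other ATF4 response genes 5 were lower and 3 higher: PSAT1 (-0.90) and CHAC1 (-0.77) fell most, and DDIT3 (1.38), TRIB3 (0.72) and ATF4 (0.51) were higher. DDIT3 and MARS1 overlap on opposite strands, and the strand setting of the counting is not given in the sources used here.

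**Figure D2:**
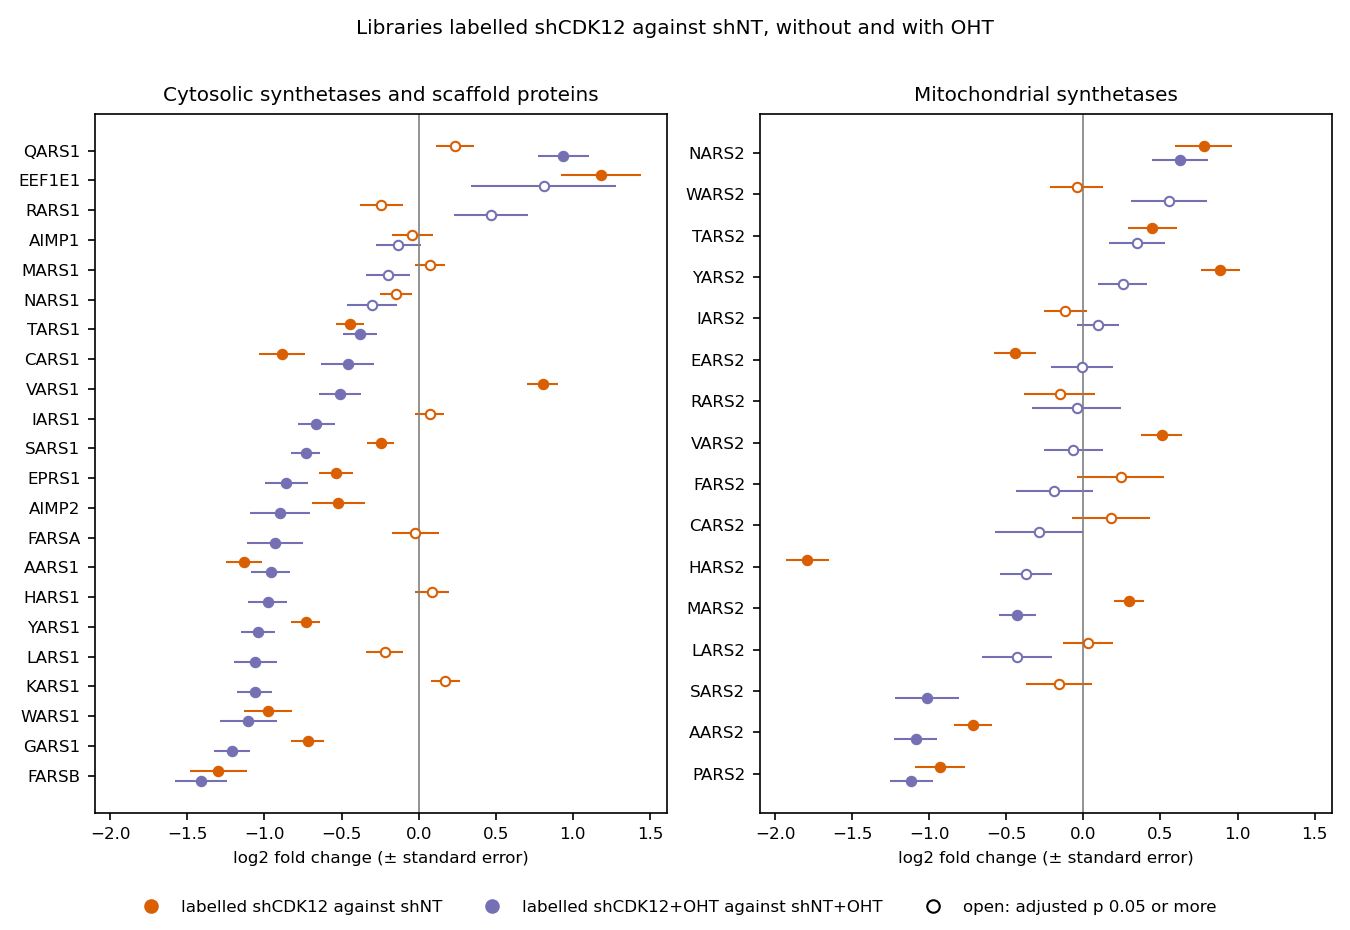
Log2 fold change of the libraries labelled shCDK12 against shNT for each member, with its standard error, without OHT (orange) and with OHT (violet), for cytosolic (left) and mitochondrial (right) genes. Filled points had an adjusted p under 0.05. With OHT 16 of the 22 cytosolic genes were called lower against 4 of the 16 mitochondrial genes and 21.6% of all genes tested.

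The third comparison gave the response to OHT inside the libraries labelled shCDK12. Here 9 members fell and 6 rose of 38, where 21.5% of all genes tested fell and 27.5% rose. The members that fell were HARS1, LARS1, KARS1, VARS1, IARS1, GARS1, EEF1E1, MARS2 and YARS2, of which KARS1, VARS1, HARS1 and MARS2 had risen upon OHT in the shNT background. The members that rose were HARS2, CARS1, QARS1, WARS2, EARS2 and AARS1. The medians of both compartments were close to 0 (-0.11 cytosolic, -0.03 mitochondrial, 0.05 over all genes). Of the 11 other ATF4 response genes 8 fell and 1 rose, against the 21.5% and 27.5% of all genes tested. SLC7A11 (-0.72) and CHAC1 (-0.70) fell most, ATF4 itself fell (-0.36), and SESN2 rose (0.25).

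LARS1, the leucyl-tRNA synthetase, was read at 81.0, 88.2 and 79.7 CPM in shNT, 91.5, 115 and 116 in shNT+OHT, 61.8, 77.9 and 73.6 in shCDK12 and 54.3, 49.0 and 48.4 in shCDK12+OHT, and OHT lowered it 0.707-fold in the libraries labelled shCDK12 (log2 fold change -0.50 ± 0.11 SE, adjusted p = 0.000856). KARS1 fell 0.707-fold (log2 fold change -0.50 ± 0.08 SE, adjusted p = 5.32e-05), to the lowest values of its 4 groups. VARS1 fell 0.712-fold (log2 fold change -0.49 ± 0.08 SE, adjusted p = 6.7e-05) from the raised level described above, and IARS1 fell 0.713-fold (log2 fold change -0.49 ± 0.08 SE, adjusted p = 0.00012). CARS1, the cysteinyl-tRNA synthetase, was read at 56.0, 63.4 and 58.6 CPM in shNT, 76.1, 49.5 and 52.8 in shNT+OHT, 35.4, 26.4 and 35.7 in shCDK12 and 42.2, 42.1 and 45.7 in shCDK12+OHT (log2 fold change 0.43 ± 0.13 SE, adjusted p = 0.0111), a partial rise from the low level without OHT. QARS1, the glutaminyl-tRNA synthetase, was read at 85.3, 71.2 and 87.7 CPM in shNT, 84.3, 52.8 and 60.6 in shNT+OHT, 101, 82.6 and 104 in shCDK12 and 124, 123 and 134 in shCDK12+OHT, highest in all 3 shCDK12+OHT libraries (1.33-fold, log2 fold change 0.42 ± 0.10 SE, adjusted p = 0.00166). AARS1 rose 1.24-fold (log2 fold change 0.31 ± 0.11 SE, adjusted p = 0.027), but GARS1, another ATF4-responsive gene, fell 0.824-fold (log2 fold change -0.28 ± 0.09 SE, adjusted p = 0.0202).

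**Figure D3:**
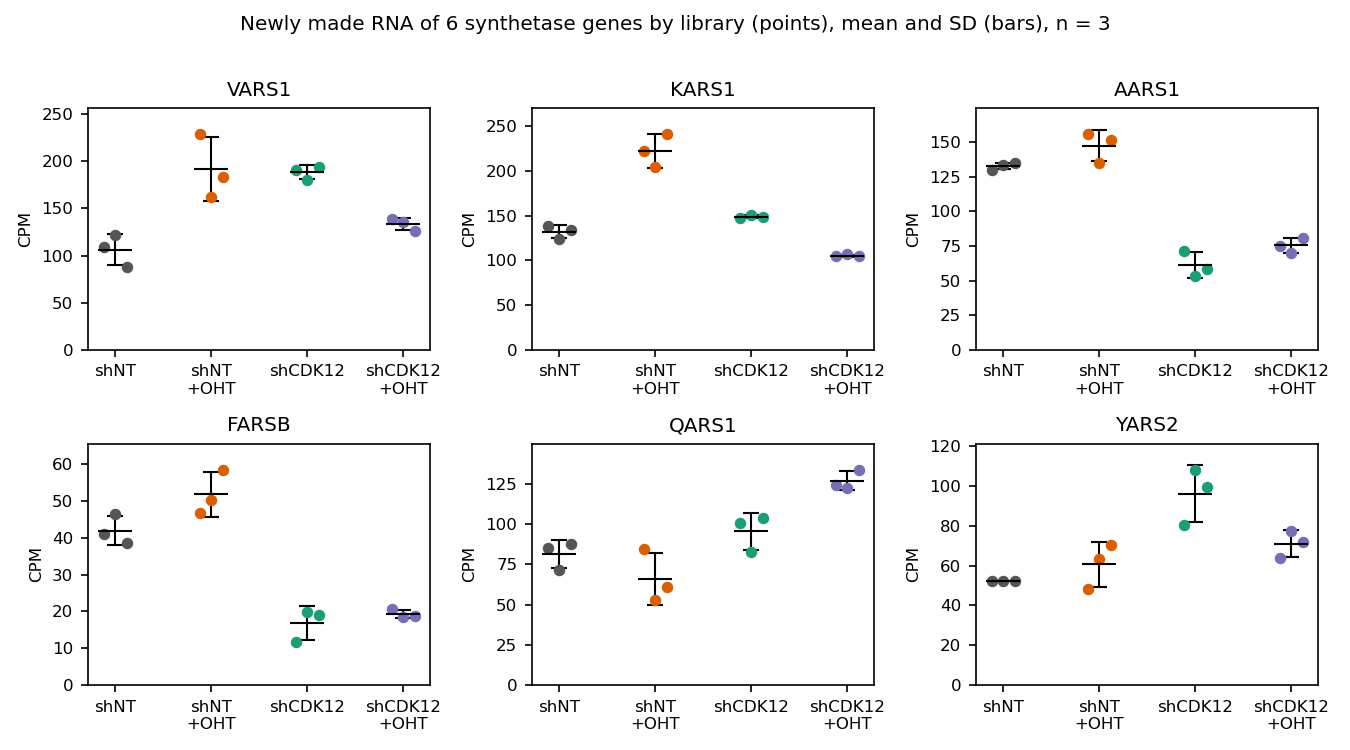
CPM of VARS1, KARS1, AARS1, FARSB, QARS1 and YARS2 in each of the 12 libraries (points), with the mean and SD of each group (bars, n = 3), on linear axes from 0. VARS1 and KARS1 were raised by OHT in shNT and lowered by it in shCDK12, AARS1 and FARSB were low in all 6 libraries labelled shCDK12, and QARS1 was highest in shCDK12+OHT.

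With OHT on, the libraries labelled shCDK12 were lower than shNT for most cytosolic synthetases. Of the 38 members 20 were lower and 2 higher, against 21.6% lower and 23.8% higher over all genes tested. Of the 22 cytosolic genes 16 were lower and QARS1 was higher (median of the log2 fold changes -0.79). Of the 16 mitochondrial genes AARS2, MARS2, PARS2 and SARS2 were lower and NARS2 was higher, with a median of -0.13. Over all genes tested the median was 0.05.

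FARSB showed the lowest ratio of the 38, 0.376-fold (log2 fold change -1.41 ± 0.17 SE, adjusted p = 0.000106). GARS1 was 0.432-fold (log2 fold change -1.21 ± 0.11 SE, adjusted p = 2.5e-05), KARS1 0.478-fold (log2 fold change -1.06 ± 0.11 SE, adjusted p = 4.67e-05) and YARS1 0.486-fold (log2 fold change -1.04 ± 0.11 SE, adjusted p = 4.35e-05). WARS1 (-1.11), LARS1 (-1.06), AARS1 (-0.96), FARSA (-0.93), AIMP2 (-0.90), EPRS1 (-0.86), SARS1 (-0.73), IARS1 (-0.66), VARS1 (-0.51), CARS1 (-0.46, adjusted p = 0.0498) and TARS1 (-0.38) were also lower on the log2 scale. PARS2, the mitochondrial prolyl-tRNA synthetase, was read at 65.1, 74.2 and 40.1 CPM in shNT, 85.5, 84.1 and 81.2 in shNT+OHT, 30.6, 31.9 and 34.0 in shCDK12 and 41.7, 38.9 and 33.2 in shCDK12+OHT (0.461-fold, log2 fold change -1.12 ± 0.14 SE, adjusted p = 0.000126). QARS1 was 1.92-fold (log2 fold change 0.94 ± 0.17 SE, adjusted p = 0.00107) and NARS2, read at 16.9, 19.7 and 15.0 CPM in shNT, 20.7, 19.0 and 18.0 in shNT+OHT, 30.1, 33.7 and 26.1 in shCDK12 and 28.3, 28.5 and 31.2 in shCDK12+OHT, was 1.54-fold (log2 fold change 0.63 ± 0.18 SE, adjusted p = 0.0166).

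Of the ATF4-responsive synthetases 10 of 12 were lower, and of the other cytosolic synthetases 5 of 7, with medians of -0.79 and -0.93. Of the 11 other ATF4 response genes 10 were lower and none higher (median -1.32), led by CHAC1 (-2.57) and ASNS (-1.72). ATF4 itself was among those lower (-0.50), and DDIT3 (0.07) was not called. Over all genes tested 21.6% were lower and 23.8% higher. Within the multi-synthetase complex, 5 of its 10 listed genes were lower (EPRS1, IARS1, KARS1, LARS1 and AIMP2) and QARS1 higher. Of the 12 cytosolic enzymes outside the complex 11 were lower. MARS1 (-0.48 to 0.08 as the approximate 95% interval of the log2 fold change), NARS1 (-0.62 to 0.01), AIMP1 (-0.42 to 0.16), RARS1 (-0.00 to 0.94) and EEF1E1 (-0.11 to 1.73) were the cytosolic genes not called. These intervals rest on a normal approximation from the SE and are narrower than the quasi-likelihood test implies.

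The interaction term tested whether the response to OHT differed between the libraries labelled shCDK12 and the shNT libraries. It was lower in the shCDK12 background for 12 members and higher for 2, against 19.6% lower and 25.6% higher over all genes tested. The members with a lower response were VARS1 (difference -1.34 ± 0.18 SE on the log2 scale, adjusted p = 5.64e-06), KARS1 (difference -1.26 ± 0.14 SE on the log2 scale, adjusted p = 6.32e-07), HARS1, FARSA (-0.93), LARS1 (-0.86), IARS1 (-0.76), GARS1 (difference -0.51 ± 0.16 SE on the log2 scale, adjusted p = 0.0112), SARS1 (-0.51), SARS2 (-0.88), MARS2 (-0.74), YARS2 (-0.65) and VARS2 (-0.60). HARS2 and QARS1 (difference 0.68 ± 0.21 SE on the log2 scale, adjusted p = 0.0124) had a higher one. The median difference was -0.34 over the cytosolic and -0.30 over the mitochondrial genes, against 0.10 over all genes, and the difference between the 2 compartments was not tested.

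For the 12 ATF4-responsive synthetases 4 interaction terms were called (GARS1, IARS1, LARS1 and SARS1, all lower), and for the 7 other cytosolic synthetases 5 were called (FARSA, HARS1, KARS1 and VARS1 lower, QARS1 higher). The term was lower for 19.6% and higher for 25.6% of all genes tested. AARS1, the gene with the lowest ratio of the ATF4-responsive synthetases without OHT, had a difference of 0.15 ± 0.17 SE with an adjusted p of 0.51. Of the 11 other ATF4 response genes 10 had a lower response in the shCDK12 background, led by CHAC1 (-1.82) and ASNS (-1.47), the asparagine synthetase.

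HARS1 and HARS2 encode the cytosolic and the mitochondrial histidyl-tRNA synthetase and are transcribed in opposite directions from a shared promoter on chromosome 5. The 84 bases between their RefSeq start sites are printed because the 2 genes moved in opposite directions, on the strand of HARS2, with the ETS cores in capitals.
HARS1 to HARS2 (chr5:140691371-140691454, plus strand): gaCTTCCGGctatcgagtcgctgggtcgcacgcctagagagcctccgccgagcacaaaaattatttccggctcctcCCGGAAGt
HARS1 was read at 86.0, 81.6 and 74.2 CPM in shNT, 118, 103 and 124 in shNT+OHT, 85.7, 83.3 and 90.1 in shCDK12 and 56.5, 59.0 and 59.0 in shCDK12+OHT. HARS2 was read at 91.6, 90.6 and 87.7 CPM in shNT, 60.8, 63.5 and 61.5 in shNT+OHT, 21.5, 26.0 and 30.2 in shCDK12 and 39.4, 43.4 and 59.1 in shCDK12+OHT. OHT in the shNT background raised HARS1 1.43-fold (log2 fold change 0.52 ± 0.14 SE, adjusted p = 0.0241) and lowered HARS2 to 0.685-fold (log2 fold change -0.55 ± 0.15 SE, adjusted p = 0.0221), with no overlap for either gene.

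In the libraries labelled shCDK12 the directions were exchanged. OHT lowered HARS1 to 0.674-fold (log2 fold change -0.57 ± 0.09 SE, adjusted p = 6.32e-05) and raised HARS2 1.80-fold (log2 fold change 0.85 ± 0.16 SE, adjusted p = 0.000226). The interaction was -1.09 ± 0.16 SE for HARS1 (adjusted p = 2.19e-05) and 1.397 ± 0.22 SE for HARS2 (adjusted p = 3.75e-05), the highest of all 38 members. Without OHT, HARS2 in the libraries labelled shCDK12 was 0.289-fold the shNT level (log2 fold change -1.79 ± 0.14 SE, adjusted p = 4.46e-11), the lowest ratio of any member in any comparison, while HARS1 was not called (log2 fold change 0.09 ± 0.11 SE, adjusted p = 0.495). With OHT, HARS1 was 0.508-fold (log2 fold change -0.98 ± 0.13 SE, adjusted p = 0.000152) and HARS2 was not called (log2 fold change -0.37 ± 0.17 SE, adjusted p = 0.0964).

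The ratio of HARS1 to HARS2 CPM within a library was 0.939, 0.901 and 0.846 in shNT, 1.95, 1.62 and 2.02 in shNT+OHT, 3.98, 3.20 and 2.99 in shCDK12, and 1.43, 1.36 and 0.997 in shCDK12+OHT. These 4 ranges did not overlap. As a ratio within a library it does not depend on scaling. The annotated HARS1 and HARS2 overlap each other on opposite strands, HARS1 also overlaps WDR55 on the opposite strand and DND1 on the same strand, and HARS2 overlaps ZMAT2 on the same strand. Of the 38 members 19 overlap an annotated gene on the opposite strand, among them KARS1 with TERF2IP, AARS1 with DDX19B, WARS1 with WDR25 and YARS1 with S100PBP, and 4 overlap one on the same strand. How reads in such overlaps were split between genes is not given in the sources used here, so the values of these members are uncertain to that extent.

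**Figure D4:**
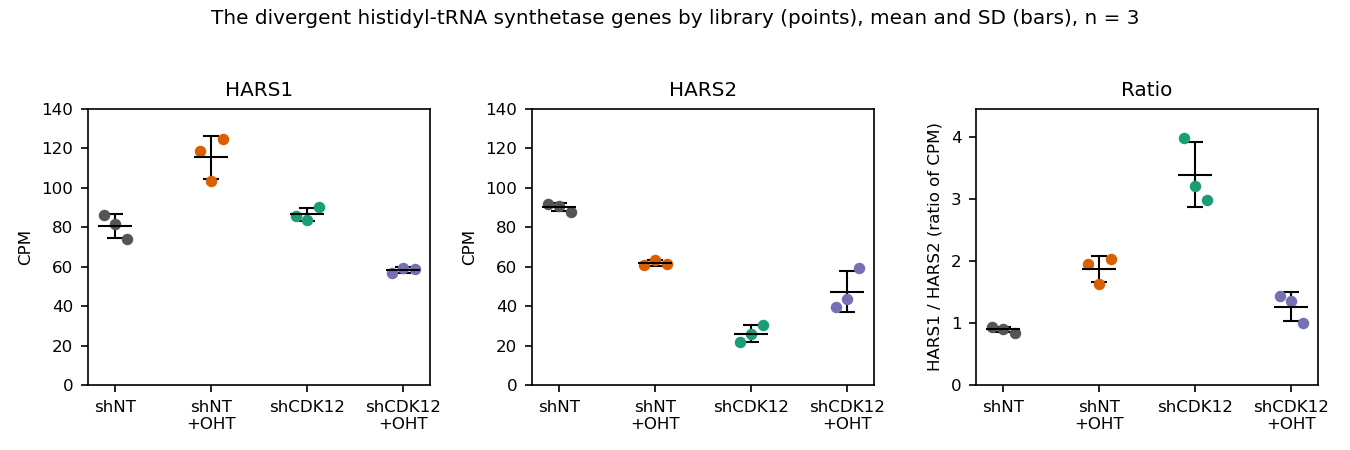
CPM of HARS1 (left) and HARS2 (middle) and their ratio (right) in each of the 12 libraries (points), with the mean and SD of each group (bars, n = 3). OHT raised HARS1 and lowered HARS2 in shNT and did the reverse in shCDK12, and the ratio ran from 0.846 in an shNT library to 3.98 in an shCDK12 library.

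The 2 compartments were also compared within each library. For every gene the log2 CPM was set against its own mean over the 12 libraries, and the median was taken over the 22 cytosolic and the 16 mitochondrial genes. The cytosolic minus the mitochondrial median was 0.31, 0.15 and 0.20 in shNT, 0.20, 0.39 and 0.14 in shNT+OHT, -0.17, -0.10 and -0.03 in shCDK12, and -0.27, -0.33 and -0.36 in shCDK12+OHT. All 6 shNT libraries lay above 0 and all 6 libraries labelled shCDK12 below it, and the 3 shCDK12+OHT libraries were the lowest of all. Here 0 is set by centering each gene on its mean over the 12 libraries and does not mean equal levels of the compartments. The summed CPM of the 38 members was 3221 to 3462 in shNT, 3834 to 4256 in shNT+OHT, 2919 to 3045 in shCDK12 and 2673 to 2795 in shCDK12+OHT, with no overlap between the 4 groups.

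**Figure D5:**
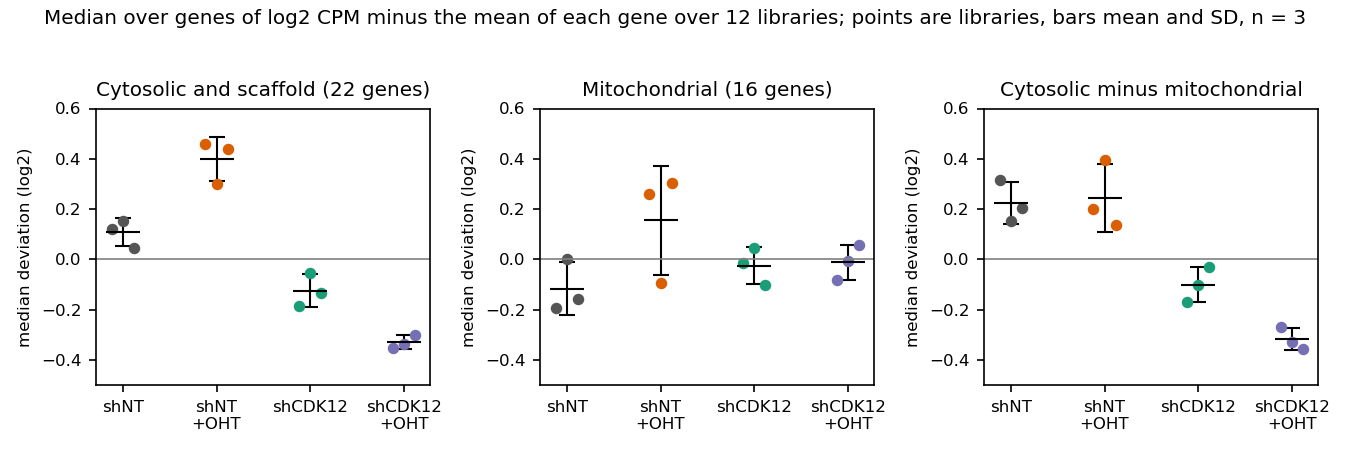
Median deviation of the 22 cytosolic genes (left) and the 16 mitochondrial genes (middle) from their mean over 12 libraries, and the difference of the 2 medians (right), in log2 CPM, for each library (points) with the mean and SD of each group (bars, n = 3). The cytosolic medians separated the 4 groups, and the mitochondrial ones overlapped. The difference was above 0, which is set by the centering, in the 6 shNT libraries and below 0 in the 6 libraries labelled shCDK12.

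Pairs that charge the same amino acid in the 2 compartments are given side by side, and the difference within a pair was not tested. AARS1 and AARS2 were both lower in the libraries labelled shCDK12 with OHT (-0.96 and -1.09) as without it, and VARS1 and VARS2 were both higher without OHT and both had a lower interaction term. For methionine, MARS1 was not called in any of the 5 tests, while MARS2 was called in all 5, upon OHT in shNT with a call that did not hold under several alternatives. For serine, SARS1 and SARS2 were both lower in the shCDK12 libraries with OHT (-0.73 and -1.01) and both had a lower interaction term. For leucine and isoleucine, LARS1 and IARS1 fell upon OHT in the shCDK12 background, whereas LARS2 and IARS2 were not called in any test. For asparagine, NARS1 was not called in any test and NARS2 was higher in the libraries labelled shCDK12 with and without OHT. For tryptophan, WARS1 was lower in the libraries labelled shCDK12 in both comparisons, and WARS2 rose upon OHT there (1.33-fold).

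Of the 38 members 9 were called in none of the 5 tests and 2 in all 5, VARS1 and MARS2. The 9 were MARS1, NARS1, RARS1, AIMP1, CARS2, FARS2, IARS2, LARS2 and RARS2, of which FARS2 was not tested in shNT+OHT against shNT. Among all genes tested, 17.3% were called in shNT+OHT against shNT, 62% in shCDK12 against shNT and 48.9% in shCDK12+OHT against shCDK12. The share was 45.4% in shCDK12+OHT against shNT+OHT and 45.2% in the interaction. How many of all genes were called in none or in all 5 tests was not counted. FARS2 was read at 6.64 to 12.1 CPM and CARS2 at 7.42 to 19.7 CPM over the 12 libraries. At these levels the approximate 95% interval of the log2 fold change in shCDK12+OHT against shNT+OHT ran from -0.68 to 0.31 and from -0.85 to 0.27. For AIMP1, at 45.6 to 65.2 CPM, the same interval was -0.42 to 0.16.

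Other genes of tRNA metabolism were counted for comparison. Over all genes tested in shCDK12 against shNT, 29.6% were higher and 32.4% lower. In the interaction 19.6% were lower and 25.6% higher. Of 11 genes of tRNA maturation and export, 3 were higher and 1 lower in shCDK12 against shNT (SSB, 0.79, and CLP1, 0.53, led the rise, and ELAC1, -1.28, fell), SSB (-0.58) fell upon OHT in the shCDK12 background, and with OHT TSEN34 (0.75) and CLP1 (0.32) were higher and ELAC2 (-0.44) lower. Their interaction terms were lower for 3, with SSB (-1.06) and XPOT (-0.66), the tRNA export receptor, in the lead. Of 12 charging partners and proofreading genes, 8 were tested upon OHT in shNT and 1 rose (PTRH2, 0.79), against 9.05% of all genes. In shCDK12 against shNT 10 were tested, and 3 were higher (SEPSECS, 1.05, and DTD1, 0.88, most) and 2 lower (DTD2, -0.73, and QRSL1, -0.61). In both lists the share of higher calls in shCDK12 against shNT was near that of all genes. Upon OHT in the shCDK12 background DTD2 (0.64), a proofreading deacylase, rose while MTFMT (-0.68) and PTRH2 (-0.45) fell, and with OHT SEPSECS (1.03) and DTD2 (0.76) were higher and PTRH2 (-0.75) and GATC (-0.43) lower. The interaction terms were lower for PTRH2 (-1.24) and MTFMT (-0.95) and higher for DTD2 (1.47).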

How the data were processed

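EU-labelled RNA of 12 libraries (4 groups of 3) was measured by stranded total RNA sequencing of human RNA mixed with mouse RNA. The authors deposited 1 table of raw counts per gene, and the submitters' processing notes name STAR 2.7.5c, featureCounts 1.4.5-p1 and hg19, with no strand setting given in the sources used here. Of its 23434 genes, 23284 were matched to a symbol. Groups came from the labels.

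From these counts, edgeR 4.0.16 in R 4.3.3 (quasi-likelihood test, TMM) was fitted to the 6 libraries of each comparison and to all 12 for the interaction, on genes with a mean normalized count over 32, with Benjamini-Hochberg adjustment over all genes tested and a threshold of 0.05. Tested on simulated data with 200 genes changed 2-fold, the same steps recovered 152 in shNT+OHT against shNT (10132 genes), 181 in shCDK12 against shNT (11565 genes), 186 in shCDK12+OHT against shCDK12 (12411 genes), 147 in shCDK12+OHT against shNT+OHT (11519 genes) and 123 in the interaction (11591 genes). False calls numbered 5, 7, 7, 14 and 7 in the same order. In the data 17.3% to 62% of all genes were called, far more than the 200 changed here. No member reached a 2-fold change in shNT+OHT against shNT, so the recovery does not carry over to its calls. Alternatives were DESeq2 1.42.0, upper-quartile scaling, other filters, a shared fit, the replicate block, thinning to 1251695 counts and leaving out each library.

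The members and lists were chosen with earlier results of these data known. Named members were up to 3 with the largest rise and up to 3 with the largest fall among those called and, between 2 groups, without overlap, plus CDK12, MYC, HARS1, HARS2, GARS1 and KARS1, and of other lists the 2 largest called changes in each direction. Other members named were chosen after their values were seen, and 1 gene of the other lists that the rule names is not reported here. The counts come from hg19 and the printed sequences from GRCh38.p14, and no coordinates were carried between them. Same-numbered libraries deviated together in 2 of 18 pairs of libraries (r over 0.1, range -0.092 to 0.31), against 0 of 36 differently numbered pairs (range -0.35 to 0.0996). Both pairs joined shNT+OHT with shCDK12, at replicate 1 (0.28) and replicate 2 (0.31), and a shared batch there was not tested. The numbers were not used to pair samples in the main fits, and the replicate block was an alternative.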

Additional observations from a re-analysis of the deposited data

Results flagged for a closer look

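The response to OHT differed between the libraries labelled shCDK12 and the shNT libraries, by the interaction term (edgeR, adjusted over all genes), for 14 members. The differences on the log2 scale (shCDK12 minus shNT background) were -1.34 for VARS1, -1.26 for KARS1, -1.09 for HARS1, -0.93 for FARSA, -0.86 for LARS1, -0.76 for IARS1, -0.51 for GARS1 and -0.51 for SARS1. Among the mitochondrial genes they were -0.88 for SARS2, -0.74 for MARS2, -0.65 for YARS2 and -0.60 for VARS2. The difference was positive for QARS1 (0.68) and HARS2 (1.397), whose log2 fold changes upon OHT had opposite signs in the 2 backgrounds. HARS2 had -0.55 in shNT and 0.85 in shCDK12, and QARS1 had -0.28 (not called) and 0.42.

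Outside the members the same term was -0.83 for CDK12 and 0.96 for MYC, the perturbed genes. It was -1.82 for CHAC1 and -1.47 for ASNS among the ATF4 response genes, -1.06 for SSB and -0.66 for XPOT among the genes of tRNA maturation, and -1.24 for PTRH2, -0.95 for MTFMT and 1.47 for DTD2 among the charging partners. The groups held 3 libraries each, so no search for a single outlying library within a group was made.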

How the results depend on the processing

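Of 46 values for single genes, 33 kept their direction and their side of the threshold under every alternative, 8 lost the call in at least 1, 2 gained one, and 3 changed sign, none of which was called. In shNT+OHT against shNT the adjusted p under the alternatives ran from 0.00414 to 0.117 for FARSA, from 0.00287 to 0.122 for HARS1 and from 0.0106 to 0.103 for HARS2, and reached 0.197 for CDK12. The highest adjusted p was 0.241 for CARS1, 0.0602 for LARS1 and 0.0761 for GARS1 in shCDK12+OHT against shCDK12, and 0.0764 for NARS2 in shCDK12+OHT against shNT+OHT, while KARS1 in shCDK12 against shNT (lowest 0.0202) and HARS2 in shCDK12+OHT against shNT+OHT (lowest 0.0322) gained a call. The values that changed sign were CDK12 in shCDK12 against shNT (0.0145 with upper-quartile scaling), MYC in shNT+OHT against shNT (0.0349 without shNT+OHT replicate 2, range with 1 library left out -0.167 to 0.0349) and MYC in shCDK12+OHT against shNT+OHT (-0.0432 without shNT+OHT replicate 2, range -0.0432 to 0.156).

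The 7 members called in shNT+OHT against shNT became 12 with all 12 libraries in 1 fit, and 2 to 12 when 1 library was left out. The other counts stayed within 1.5 times when 1 library was left out, at 18 to 24, 11 to 15, 18 to 24 and 12 to 17. The mitochondrial median in shNT+OHT against shNT was 0.0917 to 0.33 with 1 library left out and 0.34 with thinning. Of the cytosolic medians, that of shNT+OHT against shNT ranged from 0.20 to 0.31 and that of shCDK12 against shNT from -0.29 to -0.15 with 1 library left out, and the latter was -0.14 with upper-quartile scaling. With all libraries thinned to the smallest total, the cytosolic median in shCDK12+OHT against shNT+OHT was -0.90. The cytosolic median of the interaction was -0.40 with DESeq2, -0.45 with upper-quartile scaling, -0.43 with thinning and -0.36 to -0.26 with 1 library left out. The mitochondrial median of the interaction was -0.56 with thinning and -0.36 to -0.14 with 1 library left out, and in shCDK12+OHT against shNT+OHT it was -0.26 to -0.0487 with 1 library left out. The causes were not tested. Upper-quartile scaling moved the median interaction over all genes from 0.10 to -0.02. With the replicate block, 6, 21, 15, 21 and 15 members were called against 7, 21, 15, 22 and 14 without it. The block changed none of the 46 calls, but MARS2 in shNT+OHT against shNT, which is not among them, lost its call with the block, with edgeR's filterByExpr, with thinning and without any 1 of the shNT libraries or shNT+OHT replicate 3. Thinning tested 31 or 32 members, since fewer passed the filter. Depth limits the low genes FARS2, CARS2, RARS2 and EEF1E1 most.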
